A study of Mus musculus with 6 samples.

Results

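Skeletal muscle transcripts in 6 RNA-seq libraries of mouse sciatic nerve were followed through 36 genes that encode the contractile filaments, calcium handling, energy supply and nerve contact of muscle fibres. The genes were taken by symbol, 36 of the 54309 genes in the deposited tables, and the reads and TPM (an abundance corrected for transcript length and library depth) of each gene's transcripts were summed in each library. They were put together after their levels in these libraries had been seen, so the levels by library are a description and carry no test. Each library held distal tissue from left sciatic nerves of C57BL/6 mice (C57BL6/J in the growth protocol) aged 6 to 8 weeks, with 3 libraries from females and 3 from males, each pooled from 2 animals 24 h after surgery. The labels conflict on that surgery: axotomy is the treatment given for each library and in the design text, but the protocol attached to every one of them is a sham operation, in which the nerve was laid open at mid-thigh and not cut, the muscle was sutured and the skin was stapled. There was thus 1 surgical condition, whichever it was, and the sexes were the only groups that the labels give. The libraries are named by sex and by the replicate number in their titles, and where 3 values of a sex follow each other they are in the order of that number.

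A skeletal muscle fibre shortens when thick filaments of myosin pull on thin filaments of actin inside repeated units, the sarcomeres, which are anchored at Z-discs. Calcium released from the sarcoplasmic reticulum binds troponin on the thin filament and permits the pull. Slow and fast fibres use different genes for many of these parts: Myh7 is the slow (type I) myosin heavy chain, and Myh2, Myh1 and Myh4 encode the fast types IIa, IIx and IIb in order of increasing speed. A nerve has no muscle fibres of its own, but it lies between muscles and its axons end on them at the neuromuscular junction.

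Depth ranged from 55272138 to 77610593 estimated reads per library. A count of 0 allows up to 3 reads, which come to 0.0387 to 0.0543 CPM (read counts scaled to a common library total). All 8 Schwann cell and myelin markers were detected in every library, with summed levels of 10710 TPM in female 2 to 27900 TPM in male 1. Every pair of libraries differed by more than sampling noise. Intervals below are exact 95% intervals for counting error only, and they say nothing of the spread between animals.

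The share of reads from the 36 genes differed widely, and 2 libraries stood apart. The 36 genes took 0.268% of all reads in female 2 (184013 reads, interval 0.267% to 0.269%) and 0.129% in male 1 (100040 reads, 0.128% to 0.130%). In the remaining libraries they took 0.00724% in female 1 (5229 reads), 0.00813% in female 3 (6109), 0.00596% in male 2 (3634) and 0.00627% in male 3 (3466). In TPM the sums were 76.8 in female 1, 1928 in female 2, 87.1 in female 3, 1004 in male 1, 67.9 in male 2 and 68.6 in male 3. All 36 genes had at least 3 reads in female 2 and 34 had in male 1. In the other libraries 2 to 9 of them fell under 3 reads. At least 10 TPM was reached by 18 genes in female 2 and by 16 in male 1, against 1 or 2 in each of the others.

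The leading genes differed as well. Myh4, Acta1, Atp2a1, Ckm and Tnnt3 led in both female 2 and male 1, with 57.6% and 60.5% of the muscle reads. In male 2 and male 3 the lead fell to Des, Casq1, Musk and Rapsn, joined by Tnnc1 in male 2 and Tnni1 in male 3, and Myh4 was not among the 5 leading genes. Female 1 and female 3 mixed the 2 kinds, since Des, Tnnc1 and Casq1 led there but Myh4 was also among the top 5. In a bulk library a smaller number of muscle fibres and less RNA per fibre cannot be told apart.

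**Figure D1:**
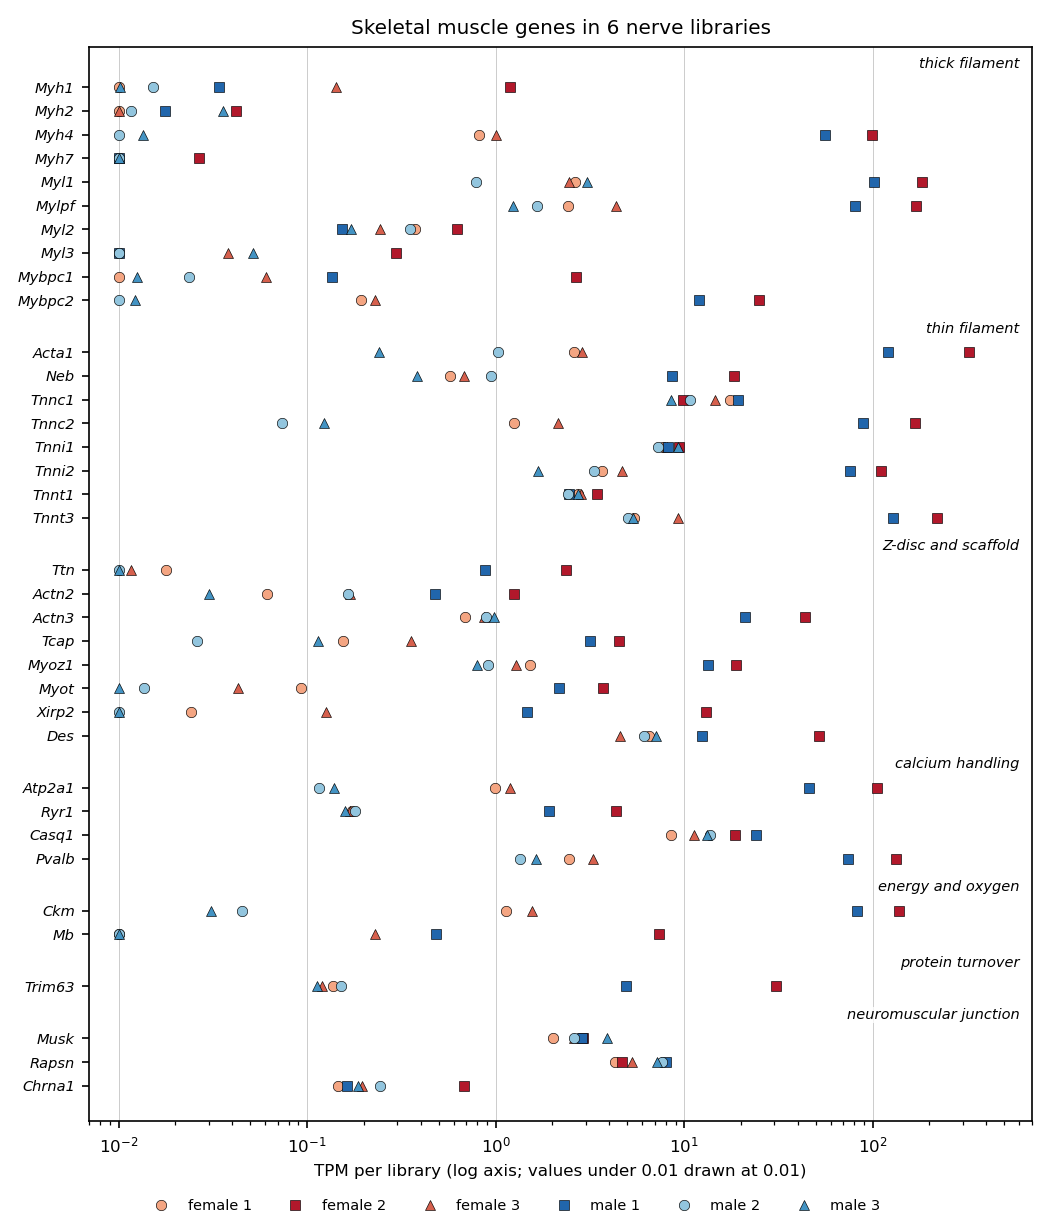
TPM of each of the 36 genes in each library, on a log axis with values under 0.01 drawn at 0.01, grouped by role. For most genes the squares (female 2 in red, male 1 in blue) lie far to the right of the circles and triangles of the other libraries. For Tnnc1, Tnni1, Tnnt1, Musk and Rapsn the 6 symbols lie close together.

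Myosin heavy chains form the thick filament, and their make-up is the usual measure of fibre type. The fast genes lie side by side on chromosome 11 in the order Myh3, Myh2, Myh1, Myh4, Myh8 and Myh13, with the embryonic Myh3 and the neonatal Myh8 on either side of the adult genes. The 250 bases before the start of Myh2 (chr11:67170777-67171026), Myh1 (chr11:67199852-67200101) and Myh4 (chr11:67237562-67237811) are shown because these neighbours had very different levels, and those of Ckm (chr7:19410844-19411093) because Ckm kept close to Myh4. The sequences are from RefSeq on GRCm38.p6, plus strand, 5′ to 3′. Capitals mark E-boxes (CANNTG, the sequence read by MyoD-family factors) and MEF2 sites.
Myh2: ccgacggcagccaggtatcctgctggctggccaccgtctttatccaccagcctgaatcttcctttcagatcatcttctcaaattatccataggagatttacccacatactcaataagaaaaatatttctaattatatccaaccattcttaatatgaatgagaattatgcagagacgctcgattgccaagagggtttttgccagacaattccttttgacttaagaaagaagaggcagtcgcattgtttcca
Myh1: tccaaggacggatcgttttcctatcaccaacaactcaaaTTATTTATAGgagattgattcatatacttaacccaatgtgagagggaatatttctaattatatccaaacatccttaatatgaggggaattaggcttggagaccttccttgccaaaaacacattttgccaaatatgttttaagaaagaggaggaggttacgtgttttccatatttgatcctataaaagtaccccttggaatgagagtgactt
Myh4: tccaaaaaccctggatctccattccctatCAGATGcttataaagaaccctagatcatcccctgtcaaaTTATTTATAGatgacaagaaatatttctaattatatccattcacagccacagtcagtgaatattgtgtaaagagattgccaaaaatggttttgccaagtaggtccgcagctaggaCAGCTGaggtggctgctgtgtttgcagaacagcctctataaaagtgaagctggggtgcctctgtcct
Ckm: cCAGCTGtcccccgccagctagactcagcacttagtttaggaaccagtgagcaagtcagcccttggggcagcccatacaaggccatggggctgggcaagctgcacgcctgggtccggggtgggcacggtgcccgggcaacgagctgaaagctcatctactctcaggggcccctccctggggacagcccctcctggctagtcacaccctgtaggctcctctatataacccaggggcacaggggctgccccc

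Both strands were searched for CANNTG, for its subset CAGCTG, for the TATA box in the form TATAAA, for the MEF2 site and for the CArG box. The Myh4 stretch held 2 E-boxes, 1 of them CAGCTG, 1 MEF2 site, 3 TATA boxes and 1 CArG box. The Myh1 stretch held 1 MEF2 site, 2 TATA boxes and no E-box, and the Myh2 stretch held none of these letters. In Myh1 and Myh4 a TATA box on the other strand overlaps the MEF2 match. The Ckm stretch held 1 E-box, a CAGCTG. Such letters are common: of 32851 mouse promoters of the same length, 66.2% held CANNTG, 13.0% CAGCTG, 12.4% a TATA box, 2.92% a MEF2 site and 1.47% a CArG box. Of the 36 genes, 28 matched the RefSeq promoters, with 34 promoters among them. CANNTG was in 30 of these 34, CAGCTG in 17, a TATA box in 7, a MEF2 site in 5 (Myh1, Myh4, Pvalb, Ttn and Xirp2) and a CArG box in 3. The genes with no match were Actn3, Rapsn, Tnni2, Myot, Neb, Myoz1, Tcap and Tnnt3. A match is a description of the letters and not a bound site.

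Myh4, the IIb heavy chain, was at 0.815 TPM in female 1, 99.0 in female 2, 1.01 in female 3, 56.1 in male 1, 0.00607 in male 2 and 0.0135 in male 3. Its reads were 327, 39263 and 442 in the female libraries and 24990, 2 and 4 in the male ones. Female 2 and male 1 were thus high, female 1 and female 3 carried a trace, and male 2 and male 3 were at about the floor. Myh1, the IIx heavy chain, was at 0.00253, 1.20 and 0.143 TPM in the female libraries and at 0.0339, 0.0152 and 0.0101 TPM in the male ones. Only female 2 passed 1 TPM, and the next highest was female 3, not male 1. Myh2 reached at most 0.0418 TPM, in female 2, and Myh7 at most 0.0268 TPM, also in female 2. Male 1, with 24990 reads of Myh4, had no read of Myh7.

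Read as shares of the 4 heavy chains, Myh4 took 98.7% of 39765 reads in female 2 (interval 98.6% to 98.9%), 99.9% of 25013 in male 1 (99.86% to 99.94%), 97.9% of 334 in female 1 (95.7% to 99.2%) and 86.5% of 511 in female 3 (83.2% to 89.3%). Myh1 made up most of the rest in female 3, with 12.3% (9.61% to 15.5%, 63 reads), and in female 2, with 1.19% (1.09% to 1.30%, 474 reads). It was 0.060% in male 1 (0.0336% to 0.0989%, 15 reads) and 0.299% in female 1 (1 read). The intervals of Myh1 in female 2, female 3 and male 1 do not overlap. Male 2 and male 3 held 12 and 21 heavy chain reads in all, too few for a make-up. Of the 31-base words in the main transcript, 39.7% in Myh1 and 30.4% in Myh4 also occur in other genes, 19.4% of the Myh4 words in Myh1, so that low Myh1 values beside a high Myh4 are uncertain. In male 1 Myh4 was far higher than in female 3 while Myh1 was lower.

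The light chains sit on the neck of the myosin head. Mylpf, the fast regulatory light chain, was at 2.41, 169.7 and 4.35 TPM in the female libraries and at 80.3, 1.66 and 1.23 TPM in the male ones. Myl1, the fast essential light chain, was at 2.64, 181.6 and 2.45 TPM in females and at 101.7, 0.786 and 3.07 TPM in males. For both, female 2 and male 1 lay at least 10-fold above every other library. Of the Myl1 words, 38.7% also occur in the pseudogene Mylf-ps. Their slow counterparts stayed low, Myl2 between 0.154 TPM (male 1) and 0.622 TPM (female 2) and Myl3 between 0 and 0.296 TPM (female 2).

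Myosin-binding protein C braces the thick filament in a slow form, Mybpc1, and a fast form, Mybpc2. Mybpc2 was at 0.192, 25.1 and 0.228 TPM in the female libraries and at 11.9, 0.00545 and 0.0122 TPM in the male ones. Mybpc1 was at 0.00488, 2.66 and 0.0605 TPM in females and at 0.135, 0.0237 and 0.0125 TPM in males. Both were highest in female 2 and next highest in male 1, but the gap between these libraries was far wider for Mybpc1.

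Thin filament genes were the most abundant group, with 44.7% of the muscle TPM in female 2 and 45.1% in male 1. Acta1, skeletal alpha-actin, was at 2.61, 324.2 and 2.86 TPM in the female libraries and at 121.3, 1.02 and 0.241 TPM in the male ones. It was the most abundant of the 36 genes in female 2. Tnnt3, the fast troponin T that ties the complex to tropomyosin, was at 5.40, 218.8 and 9.29 TPM in females and at 127.6, 5.02 and 5.38 TPM in males. Tnnc2, the fast calcium-binding subunit, was at 1.25, 167.3 and 2.15 TPM in females and at 89.1, 0.0740 and 0.122 TPM in males. Tnni2, the fast inhibitory subunit, was at 3.67, 110.9 and 4.70 TPM in females and at 75.9, 3.31 and 1.67 TPM in males. These fast subunits shared high levels in female 2 and male 1, whereas in male 2 and male 3 Tnnc2 was near its floor and Tnnt3 and Tnni2 were not. Neb, the giant ruler protein of the thin filament, was at 18.4 TPM in female 2, 8.64 TPM in male 1 and 0.383 to 0.944 TPM in the others.

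The slow troponins behaved otherwise. Tnnc1, shared by slow and heart muscle, was at 17.5, 9.88 and 14.6 TPM in the female libraries and at 19.3, 10.7 and 8.50 TPM in the male ones. Tnni1 was at 7.73, 9.35 and 8.10 TPM in females and at 8.18, 7.27 and 9.28 TPM in males. Tnnt1 was at 2.74, 3.46 and 2.83 TPM in females and at 2.44, 2.42 and 2.74 TPM in males. All 3 were present at a similar level in every library, including male 2 and male 3, which had next to no myosin heavy chain.

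Slow and fast forms were compared in 9 pairs as the slow share of the pair's TPM. The median over pairs was 1.56% in female 2 and 1.12% in male 1. In female 2 the slow share was 7.78% for troponin I, 1.56% for troponin T, 5.58% for troponin C and 9.58% for myosin-binding protein C. In male 1 the same pairs gave 9.72%, 1.88%, 17.8% and 1.12%. The highest slow share in both was that of calsequestrin, 42.9% and 48.8%. From coding transcripts only, the calsequestrin share was 55.15% in female 2 and 78.35% in male 1. The slow troponins and Casq2, the slow calsequestrin, were also present in male 2 and male 3, which had next to no myosin heavy chain. The troponin and calsequestrin shares therefore cannot be read as shares of slow fibres. In the other libraries the slow share was 63.3% to 84.7% for troponin I and 23.3% to 33.7% for troponin T. For troponin C it was 87.2% to 99.3%. The light chain and calsarcin pairs were mainly fast there. Their slow shares were 0% to 1.66% (essential light chain), 0% to 4.50% (calsarcin) and 5.31% to 17.5% (regulatory light chain). Calsequestrin was 60.3% to 66.0% slow. Myosin-binding protein C was 2.47% slow in female 1 and 21.0% in female 3. In male 2 and male 3 it was 81.3% and 50.5%, on 4 and 2 slow reads and 1 and 2 fast reads. The heavy chain pair gave 0.871% in female 1, 0.849% in female 3, 16.7% in male 2 and 14.2% in male 3. Male 2 and male 3 had 1 and 3 reads of Myh7. Summed over genes, the 14 fast members were at 1294 TPM in female 2 and 721.7 TPM in male 1 against 27.9 to 42.2 TPM elsewhere, while the 7 slow members were between 20.8 and 30.2 TPM in every library.

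**Figure D2:**
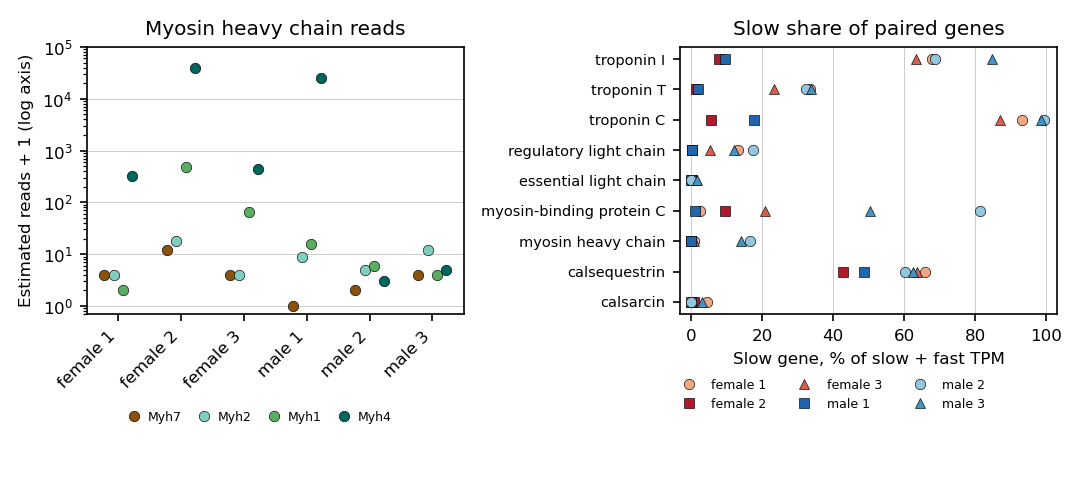
Left, estimated reads plus 1 of the 4 myosin heavy chain genes by library on a log axis. Right, the slow gene's share of slow plus fast TPM for 9 pairs, with 1 symbol per library. On the left Myh4 is high in female 2 and male 1, and on the right these libraries (squares) lie near 0% for all pairs but calsequestrin and, less closely, troponin C, troponin I and myosin-binding protein C.

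Z-disc and scaffold genes came to 139.1 TPM in female 2, 55.1 TPM in male 1 and 7.44 to 9.04 TPM in the others. Actn3, the alpha-actinin of fast fibres, was at 0.690, 43.8 and 0.870 TPM in the female libraries and at 21.1, 0.888 and 0.980 TPM in the male ones. Its sister Actn2 was at 1.26 TPM in female 2, 0.475 TPM in male 1 and 0.0300 to 0.169 TPM in the others. Actn3 was thus the main form at a muscle-rich level. Xirp2, an actin-binding repeat protein, was at 0.0243, 13.1 and 0.126 TPM in females and at 1.46, 0 and 0 TPM in males. Des, the intermediate filament desmin, which smooth muscle makes as well, was at 6.47, 51.7 and 4.58 TPM in females and at 12.5, 6.10 and 7.08 TPM in males.

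Female 2 stood further above male 1 in Xirp2 and Des than in the other Z-disc genes. Myoz1, a calcineurin-binding protein of fast fibres, was at 18.8 TPM in female 2, 13.3 TPM in male 1 and 0.799 to 1.53 TPM in the others. Tcap, which caps titin, was at 4.50 and 3.17 TPM and at 0.0260 to 0.357 TPM in the others. Myotilin, Myot, was at 3.70 and 2.17 TPM and at most 0.0932 TPM in the others. Titin itself, Ttn, the spring that spans the sarcomere, was at 2.37 TPM in female 2, 0.882 TPM in male 1 and at most 0.0179 TPM in the others. Because the transcript is so long, this low level still rested on 9340 and 3788 reads.

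Among the calcium genes, Atp2a1, the fast calcium pump SERCA1, was at 0.997, 105.8 and 1.19 TPM in the female libraries and at 46.1, 0.116 and 0.138 TPM in the male ones. Pvalb, the calcium buffer parvalbumin of fast fibres, was at 2.45, 133.6 and 3.28 TPM in females and at 74.4, 1.35 and 1.64 TPM in males. Ryr1, the calcium release channel, was at 4.33 TPM in female 2, 1.92 TPM in male 1 and 0.158 to 0.180 TPM in the others. All 3 were highest in female 2 and next highest in male 1. Among the other libraries Atp2a1 was lower in male 2 and male 3 than in female 1 and female 3, as Myh4 was, and Pvalb was so to a smaller extent, whereas Ryr1 was at a similar level in all 4. Casq1, the calcium store protein, was at 8.47, 18.7 and 11.3 TPM in females and at 24.0, 13.8 and 13.3 TPM in males. It spread over less than 3-fold and was highest in male 1.

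Ckm, the muscle creatine kinase that rebuilds ATP, was at 1.14, 138.2 and 1.56 TPM in the female libraries and at 83.1, 0.0451 and 0.0308 TPM in the male ones. Its order over the libraries was close to that of Myh4, and male 2 and male 3 had 5 and 3 reads. Mb, the oxygen store myoglobin of oxidative fibres, was at 0, 7.34 and 0.229 TPM in females and at 0.481, 0 and 0 TPM in males. Trim63 (MuRF1), a ubiquitin ligase known from muscle wasting, was at 0.138, 30.6 and 0.120 TPM in females and at 4.92, 0.152 and 0.113 TPM in males. Mb and Trim63 were both much lower in male 1 than in female 2.

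The junction genes did not share the pattern. Rapsn, which clusters acetylcholine receptors, was at 4.30, 4.67 and 5.30 TPM in the female libraries and at 8.02, 7.67 and 7.18 TPM in the male ones. The kinase Musk, which organises the junction, was at 2.02, 2.92 and 2.60 TPM in females and at 2.86, 2.60 and 3.90 TPM in males. Neither set female 2 apart, and for Rapsn every male library was above every female one. Chrna1, the receptor's alpha subunit, was at 0.681 TPM in female 2 and at 0.146 to 0.243 TPM in the others, male 1 included (0.163 TPM).

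Some genes held a transcript that was high in female 2 and male 1 beside another that varied far less between libraries. For Casq1, whose summed level varied little, the coding transcript Casq1-201 had 22.3, 1111 and 39.7 reads in the female libraries and 723.5, 12.2 and 13.4 in the male ones. Casq1-202, annotated as a retained intron, had 395.7, 323.4 and 546.3 reads in females and 918.0, 536.8 and 461.6 in males. The coding form was thus highest in female 2 and male 1. The retained-intron form was highest in male 1 and lowest in female 2, at 17.7 and 7.37 TPM. In Pvalb and Tnni2, whose sums were high in female 2 and male 1, the steady form was a minor one there. For Pvalb, Pvalb-202 had 4592 reads in female 2 and 3089 in male 1 but 0 to 78.4 in the others, while Pvalb-201 had 25.1 to 53.6 reads in all 6. For Tnni2, Tnni2-201 had 3410 and 2696 reads against 3.59 to 75.0 in the others, and the retained-intron form Tnni2-203 had 18.1 to 60.1 in all.

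Slow troponin T, even in sum, was made up of different transcripts in different libraries. Tnnt1-201 had 75.0 reads in female 2, 35.7 in male 1, 4.05 in female 3 and none in female 1, male 2 and male 3, whereas the retained-intron form Tnnt1-211 had 17.5 to 42.7 in all. The coding form Tnnt1-206 had 68.9, 0 and 42.2 reads in the female libraries and 31.5, 27.7 and 35.3 in the male ones, more than Tnnt1-211 in every library but female 2. For Tnnt3, Tnnt3-201 had 7401 and 4865 reads in female 2 and male 1, 176.7 and 254.3 in female 1 and female 3, and 0 in male 2 and male 3. Tnnt3-211 had 189.5 and 109.8 reads in male 2 and male 3, 146.0 and 113.4 in female 2 and male 1, and 7.28 and 18.5 in female 1 and female 3. Reads shared between transcripts of a gene were divided by estimate, so small transcript values are uncertain.

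**Figure D3:**
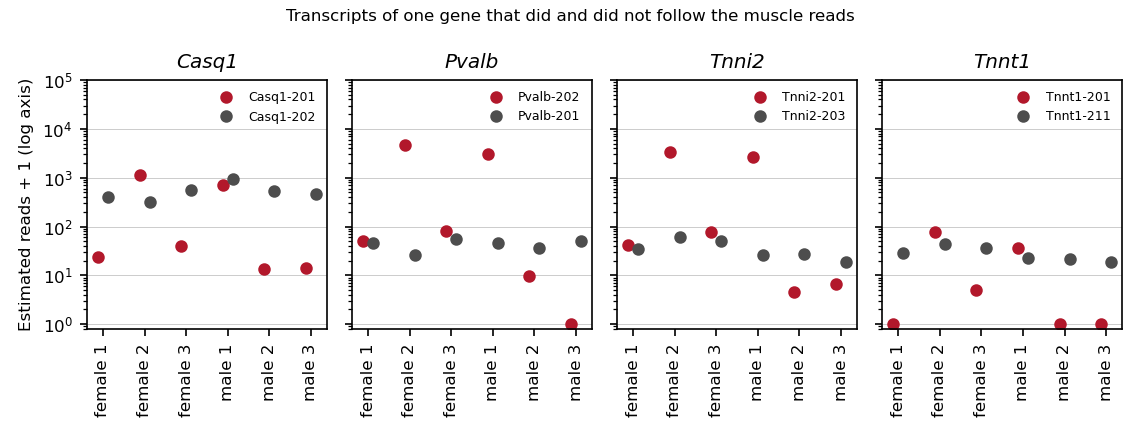
Estimated reads plus 1 (log axis) of a pair of transcripts of Casq1, Pvalb, Tnni2 and Tnnt1 in each library. Red points (a coding form) are high in female 2 and male 1, and grey points stay within about 4-fold across the 6 libraries. The red transcript was chosen for the most reads of its gene in female 2. The grey one was chosen for the highest minimum over the 6 libraries among the gene's other transcripts. High red points in female 2 and even grey points are therefore favoured by the choice.

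Female 2 and male 1 also differed in make-up. The 36 genes together were 2.08 times as high in female 2 (ratio of CPM), and the median over 34 genes with reads in both was 2.04. The interval lay above 1 for 28 and below 1 for 2 (Tnnc1, 0.484, and Rapsn, 0.555). Neither of these set male 1 apart: Tnnc1 reached 17.5 TPM and Rapsn 7.67 TPM in libraries other than female 2 and male 1. Several genes stayed near the Myh4 ratio of 1.78 (1.75 to 1.80), such as Ckm at 1.76 (1.72 to 1.81), Tnnc2 at 1.80 (1.72 to 1.89) and Tnnt3 at 1.68 (1.63 to 1.73). Acta1 was above it at 2.66 (2.60 to 2.73), Ttn at 2.79 (2.68 to 2.89) and Atp2a1 at 2.27 (2.21 to 2.33). Tnni2 was below it at 1.44 (1.37 to 1.51), as was Myoz1 at 1.37 (1.25 to 1.49).

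The far end of the ratios held genes of several roles. Myh1 was 35.7 times as high in female 2 (21.4 to 64.3), Mybpc1 17.9 times (12.4 to 26.6) and Mb 14.9 times (9.97 to 23.1). Xirp2 was 9.88 times as high (9.13 to 10.7), Trim63 6.04 times (5.51 to 6.63), Des 4.14 times (3.95 to 4.35) and Chrna1 3.94 times (2.69 to 5.91). Chrna1 in male 1 (0.163 TPM) was within the range of the other libraries (0.146 to 0.243 TPM), so its ratio does not describe the muscle reads of male 1. With 1 library on each side, these ratios compare libraries and not sexes.

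**Figure D4:**
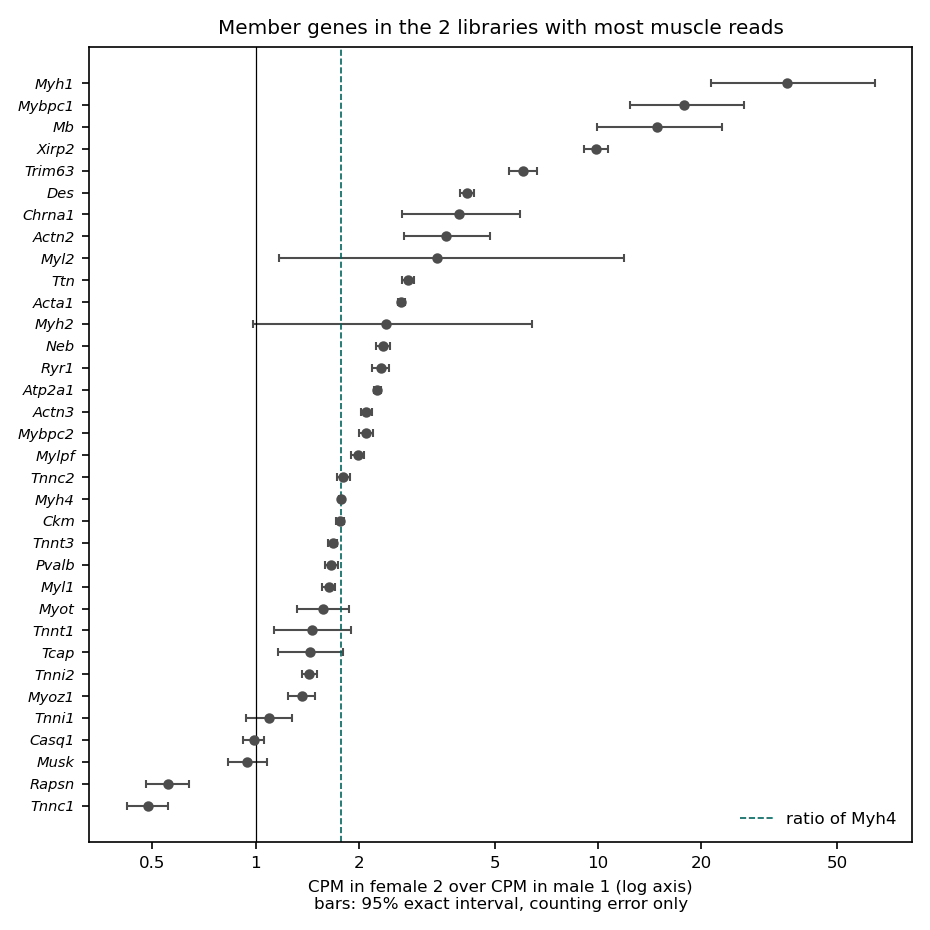
Ratio of CPM in female 2 to CPM in male 1 for the 34 genes with reads in both, on a log axis, with exact 95% intervals for counting error. The dashed line is the Myh4 ratio of 1.78. Myh1, Mybpc1, Mb, Xirp2 and Trim63 lie to its right, and Rapsn and Tnnc1 lie left of 1.

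Scaled to Myh4, the make-up could be followed into the trace libraries for genes with few reads in male 2 and male 3. Per 100 reads of Myh4, Ckm had 36.7 in female 1 (29.5 to 45.4), 34.8 in female 2 (34.1 to 35.5), 43.0 in female 3 (36.1 to 51.1) and 35.0 in male 1 (34.2 to 35.9). Tnnc2 had 12.5, 12.6, 16.5 and 12.4 in the same order, and Mybpc2 had 13.2, 13.8, 12.4 and 11.7. For Ckm, Tnnc2 and Mybpc2 the trace in female 1 and female 3 had nearly the proportions of the muscle-rich libraries, which was not so for all genes. Acta1 had 59.3, 57.4 and 50.7 in the female libraries against 38.3 in male 1 (37.4 to 39.2). The male 1 interval lay below those of all 3 females. Acta1 also had 59 reads in male 2 and 13 in male 3.

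Other genes varied among the 4 libraries. Actn3 had 36.7 and 36.4 per 100 reads of Myh4 in female 1 and female 3, against 18.7 and 15.7 in female 2 and male 1. In the same order Tcap had 2.14 and 3.85 against 0.489 and 0.600, and Des had 307.6 and 161.8 against 19.9 and 8.52. Male 2 and male 3, with 2 and 4 reads of Myh4, still had 126 and 123 reads of Actn3 and 738 and 779 of Des. Female 1 and female 3 had 120 and 161 of Actn3 and 1006 and 715 of Des. The Actn3 and Des values of female 1 and female 3 therefore cannot be read as make-up of the muscle reads. Xirp2 had 4.28 per 100 reads of Myh4 in female 1 (2.32 to 7.29), 15.5 in female 2 (15.1 to 15.9), 14.9 in female 3 (11.4 to 19.4) and 2.79 in male 1 (2.58 to 3.00). Trim63 had 4.28, 7.46, 2.94 and 2.19, and Myh1 had 0.306, 1.21, 14.3 and 0.060. Mb had 0, 0.871, 2.94 and 0.104, where the 0 in female 1 allows up to 1.13. Female 3 thus had the highest proportion of Myh1, Mybpc1 (3.17) and Mb, and male 1 the lowest that was counted.

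**Figure D5:**
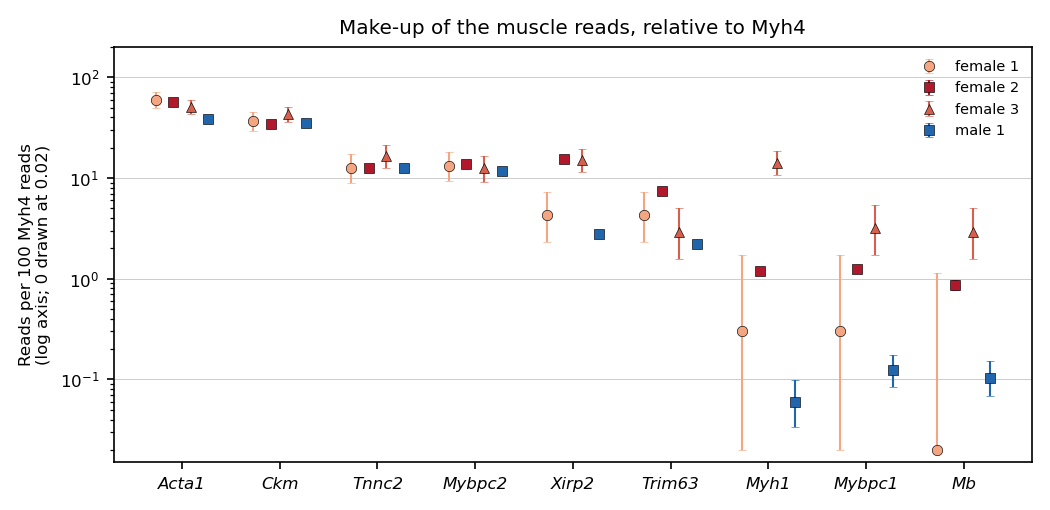
Reads of 9 genes per 100 reads of Myh4 in all libraries but male 2 and male 3, which had 2 and 4 reads of Myh4, on a log axis, with exact 95% intervals for counting error. A value of 0 is drawn at 0.02 and intervals that go lower end there. Acta1, Ckm, Tnnc2 and Mybpc2 lie at similar heights in the 4 libraries, and Xirp2, Trim63, Myh1, Mybpc1 and Mb do not.

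Of the 36 genes, 32 were highest in female 2, and 24 had male 1 next. For 20 of them male 1 was also at least 4-fold above the next library. Over all 20809 genes with at least 10 reads in any library, 488 (2.35%) had the order female 2 then male 1 and 65 (0.312%) had the 4-fold gap too. The members were chosen for this pattern, so nothing is read from their share. The 65 genes were 20 members, 24 genes from 5 further lists of muscle genes and 21 genes in none of the 12 lists.

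Other muscle genes from these lists, whose members were also chosen with earlier results known, filled in the picture. Of 24 other sarcomere genes with at least 10 reads, 19 had the order female 2 then male 1, 8 of them with the 4-fold gap. Its most abundant genes, the tropomyosins Tpm3, Tpm1 and Tpm2, are made in many cell types: Tpm1 was at 304.9 TPM in female 2, 257.6 TPM in male 1 and 183.6 to 193.2 TPM in the others. Pdlim3, a Z-disc protein, was at 22.1 TPM in female 2, 3.26 TPM in male 1 and 0.362 to 0.837 TPM in the others. Of 18 metabolism genes, 17 had the order and 7 the gap. The most abundant, the aldolase Aldoa, which many cells make, was at 1445 TPM in female 2, 985.0 TPM in male 1 and 802.1 to 879.5 TPM in the others. Eno3, the muscle enolase, was at 50.9 TPM in female 2, 29.5 TPM in male 1 and 6.37 to 7.84 TPM in the others. Pygm, the muscle glycogen phosphorylase, was at 30.1 TPM and 20.6 TPM and at 4.61 to 5.39 TPM in the others. Pfkm, the muscle phosphofructokinase, was at 25.4 TPM and 18.6 TPM and at 10.6 to 13.6 TPM in the others. Aldoa and Pfkm thus differed less between libraries than Eno3 and Pygm.

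Of 18 other calcium and excitation genes, 14 had the order and 6 the gap. The highest in the list was Atp2a2, the calcium pump of slow and heart muscle and of many other cells, which was between 116.1 and 132.6 TPM in all 6 libraries. Casq2, the calsequestrin of slow and heart muscle, was between 14.0 and 22.9 TPM. Neither had its highest level in female 2. Of 13 junction and denervation genes, 4 had the order and none the gap. Its most abundant members, Gadd45a, Agrn, Runx1 and Hdac4, were at similar levels in the 6 libraries, with Gadd45a between 42.2 and 62.2 TPM.

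Of 9 myogenic regulators and developmental myosins, 5 had the order and 3 the gap. Myf6 (MRF4), the regulator of mature fibres, had 432 reads in female 2 (9.54 TPM), 227 in male 1 (4.25 TPM) and none in the other libraries. Myog had 265 and 66 reads (4.32 and 0.934 TPM) and none elsewhere. A few further genes were chosen after their values were seen. Myod1 had 123 and 17 reads and none elsewhere. Xirp1, the paralog of Xirp2, had 1749 and 49 reads against 13 to 58 elsewhere. The receptor subunit Chrnd had 71 and 2.39 reads and none elsewhere. The ratio of female 2 to male 1 was 2.15 for Myf6 (1.83 to 2.54), 4.54 for Myog (3.45 to 6.03), 8.17 for Myod1 (4.90 to 14.5), 40.3 for Xirp1 (30.4 to 54.7) and 40.1 for Chrnd (10.7 to 337.6). These lay above the Myh4 ratio, as Trim63 and Xirp2 did. Xirp1 in male 1 (0.125 TPM) was below female 1 (0.167 TPM), so its ratio does not describe the muscle reads of male 1. The Chrnd ratio rests on 2.39 reads in male 1. Pax7, the marker of muscle stem cells, had 8 reads in female 2 and 1 in male 1.

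Outside every list, 15 genes had the clearest gap between male 1 and the next library. Ordered by that gap they were Hjv, Trim54, Gm12397, Dhrs7c, Fbxo40, Klhl31, Asb11, Ano5, Smyd1, Apobec2, Myo18b, 1110002E22Rik, Dusp13, Rpl3l and Dusp27. Hjv, hemojuvelin, had 1, 179 and 2 reads in the female libraries and 149, 0 and 1 in the male ones. Trim54 (MuRF3), a relative of Trim63, had 311 reads in female 2, 137 in male 1 and at most 2 in the others. Many of the 15 are known as muscle genes, among them Smyd1, a methyltransferase of the sarcomere, and Rpl3l, a ribosomal protein of striated muscle. Myo18b, a sarcomeric myosin, had 898 reads in female 2 and 174 in male 1 against 8 to 23 in the others, and 1110002E22Rik had 850 and 125 against 3 to 18.

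Markers of other tissues were followed beside the muscle genes. The 11 adipocyte markers summed to 825.3, 2617 and 1283 TPM in the female libraries and to 1087, 1041 and 1694 TPM in the male ones, and all 11 were highest in female 2. Adipoq, adiponectin, was at 138.0 TPM in female 2 and at 33.7 to 96.4 TPM in the others, male 1 included (52.1 TPM). Fat markers were therefore high in female 2 but not in male 1. The 8 smooth muscle markers summed to 364.6 TPM (female 2) to 458.3 TPM (male 2), but they did not move together. Of them, 4 were highest in female 2 by CPM, such as Myh11 at 8.44 TPM there and 2.64 to 5.21 TPM in the others. The abundant Tagln was lowest there, at 170.1 TPM against 190.1 to 262.7 TPM in the others. The heart muscle list ranged from 5.92 TPM (female 2) to 9.12 TPM (male 3). Tnni3 was the highest heart gene at 2.88 to 4.83 TPM. The tendon list ranged from 164.7 TPM (female 2) to 218.8 TPM (male 1) and the red blood cell list from 15840 to 32770 TPM. Keratinocyte genes Krt5 and Krt14 were at 5.98 and 13.5 TPM in female 1 and at most 0.0328 TPM in the others. Dsp was also highest in female 1, at 1.21 TPM. The rest of that list did not follow: Krt10 was at 3.78 to 5.70 TPM in all 6 libraries. Krt1 had 0 reads in female 1, and Lor had 1 to 3 reads in every library. The part of these tissues in the muscle levels was not tested.

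The sexes were compared by edgeR's quasi-likelihood test over 19129 genes with adequate counts, 31 of them members (Myh2, Myh7, Myl2, Myl3 and Myot were too low). None of the 31 was called in either direction at an adjusted p under 0.05, where 0.11% of all genes were (0.0157% higher in females, 0.0941% higher in males). At an unadjusted p under 0.05 there was 1 member, Rapsn, against 14.6% of all genes. limma-voom called no member and 0.125% of all genes, and DESeq2 called 1 member, Rapsn, against 5.28% of all genes. With no filter on low counts edgeR also called Rapsn, against 0.598% of all genes. The median log2 fold change (female minus male) was 0.82 over the 31 members, with 28 above 0, and 0.016 over all genes tested, with 10250 above 0. In TMM-scaled CPM (mean ± SD, n = 3 libraries), Myh4 was at 193.6 ± 326.5 in females and 110.9 ± 192.0 in males, a log2 fold change of 0.80 (SE 3.26, edgeR adjusted p = 0.939). Acta1 was at 111.0 ± 187.4 and 42.8 ± 73.1, a log2 fold change of 1.37 (SE 2.93, edgeR adjusted p = 0.877). In both the SD exceeded the mean in each sex, since 1 library per sex held nearly all the reads. A lack of calls for such genes is not evidence of equal levels in the sexes.

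The direction of these values rested on female 2: without it the median over members was -2.19 and Myh4 was at -4.44, both towards males. Rapsn was the only member whose sexes did not overlap, as was the case for 21.2% of all genes tested. Its mean was 4.16 CPM in females (SD 0.524, n = 3) and 6.87 CPM in males (SD 0.735, n = 3). The log2 fold change was -0.72 with an SE of 0.14 (edgeR adjusted p = 0.127). Schwann cell and myelin genes moved with it: 7 of those 8 genes also had sexes that did not overlap, and all 8 had fold changes below 0 with a median of -0.56. Their part in the Rapsn value was not tested.

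Leaving out both female 2 and male 1, an alternative added after the data were seen, left the 4 trace libraries. Their reads in female 1, female 3, male 2 and male 3 were 327, 442, 2 and 4 for Myh4, 120, 190, 5 and 3 for Ckm, 191, 219, 18 and 19 for Atp2a1, and 194, 224, 59 and 13 for Acta1. edgeR then called 3 of 26 members higher in females (Myh4, Ckm and Atp2a1), against 0.0314% of all genes. Because the 2 libraries were left out for their levels of these same genes, this count is a description of the 4 libraries and no evidence of a difference between the sexes. Among all 6 libraries male 1 was far above female 1 and female 3 in each of these genes.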

How the data were processed

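Poly-A selected, stranded, paired-end libraries were made from total RNA, per the labels' protocols. Trimmomatic 0.39, Salmon 1.5.2 and MultiQC 1.9 are named in the submitters' processing notes. For the genome build and annotation: not given in the sources used here. Per the file headers, the deposited tables give an estimated count and a TPM value for each of 140789 transcripts. The authors deposited the estimated counts without normalization. Salmon divides reads among similar transcripts by estimate.

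Estimated counts and TPM were summed per gene over 54309 genes, and counts were rounded to whole numbers for the tests. Levels are compared between genes in TPM and between libraries in reads, CPM or TPM. The members and lists were chosen with earlier results of these data known. Text names all 36 members, up to 4 genes per list with the highest level, and 15 genes outside them with the largest gap between male 1 and the next library (at least 50 reads in male 1, with 0.05 CPM added). Females and males were compared with edgeR 4.0.16 (R 4.3.3) by robust quasi-likelihood tests, TMM scaling (factors 0.968 to 1.02), filterByExpr and Benjamini-Hochberg adjustment, with a threshold of 0.05. In simulated counts of 19129 genes for this comparison, 74.6% of genes with a log2 change of 1 were recovered and 8 unchanged genes were called. Every simulated gene had the same common variation. The recovered share therefore does not hold for muscle genes that varied far more between libraries, such as Myh4 (SE 3.26). The lowest chi-square between libraries was 26.3 per degree of freedom over genes with at least 20 reads. Libraries are separate pools of animals, and the common biological coefficient of variation was 0.183. Each SE of a log2 fold change was derived from the edgeR test, as the absolute change over the square root of its F statistic. Intervals are exact (Clopper-Pearson, and the matching exact interval for ratios) and cover counting error only. Shared words of 31 bases were counted in the GENCODE M21 transcripts, where the Ttn transcript had no match of equal length. Promoters are RefSeq's (GRCm38.p6). Alternatives were RLE, upper quartile and total scaling, no filter or a mean CPM of at least 1, DESeq2 1.42.0, limma-voom 3.58.1, no robust estimation, each library left out, a block for the replicate number, shares in TPM or without Des, and slow shares from counts or coding transcripts. Leaving out both female 2 and male 1 was added after the data were seen.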

Additional observations from a re-analysis of the deposited data

How the results depend on the processing

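Member calls changed in few settings. With no filter on low counts and with DESeq2, 1 member (Rapsn) was called higher in males in place of 0, with adjusted p of 0.0381 and 0.000633 against 0.127, and without both female 2 and male 1, which were left out for their levels of these genes, 3 were called higher in females in place of 0, a count that supports nothing on sex. Leaving out each library gave 0 member calls in either direction throughout. Adjusted p in DESeq2 was not given for Myh4, Acta1, Ckm and Atp2a1. Over all genes, 3 were called higher in females, against 44 with no filter, 233 with DESeq2, 6 with limma-voom, 6 without both libraries and 0 to 17 without each library. In males 18 were called higher, against 147 with no filter, 638 with DESeq2 and 4 to 188 without each library. The cause was not tested. Without female 2 the values turned to -2.19 for the median member, -4.44 for Myh4, -3.95 for Acta1, -4.24 for Ckm and -3.96 for Atp2a1 on the log2 scale, and without male 1 they were 4.39, 11.83, 7.50, 9.90 and 8.21. The muscle share counted in TPM was 0.00768%, 0.193% and 0.00871% in the female libraries and 0.100%, 0.00679% and 0.00686% in the male ones. Without Des the share of reads was 0.00585%, 0.257% and 0.00718% in females and 0.126%, 0.00475% and 0.00486% in males. The median slow share from estimated counts was 1.21% in female 2 and 1.05% in male 1, and from coding transcripts it was 0.880% and 1.02%.

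With the replicate number as a block, 0 genes were called higher in females and 3 higher in males, and 0 members in either direction, with a member median of 0.90 and Myh4 at 4.82 (edgeR adjusted p = 0.862). After the sex means were removed, same-numbered libraries correlated at -0.141, -0.256 and 0.0134, and differently numbered ones at -0.0661 to 0.261. Only male 3 correlated best with its own number, at 0.0134 against 0.012 for female 2. These values gave no sign of a pairing by number. With 3 libraries per sex they cannot exclude one.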
